A study of Homo sapiens with 12 samples.

Results

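The 6 interleukin-type cytokine genes were described in A375, a widely used human melanoma cell line, across the 4 treatment groups of an RNA-seq experiment. The members were chosen by name, as the rows of the deposited gene table for IL6, LIF, IL11, IL24, IL1A and IL1B, which gave 6 of 20263 genes. Every group was wild type (WT) and was prepared from total RNA, and the groups differed only in the labelled treatment: Ctrl, DBIC, Hemin or DBIC+Hemin, with 3 libraries each. DBIC is written DdBIC below, after the study's name for the compound. It is a dodecyl ester of a benzimidazole carboxylic acid, described as a ligand of the nuclear receptor Nur77 that triggers pyroptosis, a lytic form of cell death. Hemin is a form of heme that the study used against that cell death, so the design asks which changes under DdBIC hemin alters. The dose and duration behind these libraries are not given in the sources used here, and a single cell line with no Nur77-deficient group limits what the treatments can be compared with. Nothing in the labels says that the 3 libraries of a group came from separate cultures, so p-values measure the spread between these libraries, which may be technical.

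IL6, LIF and IL11 are ligands of the IL-6 family, which bind a receptor of their own and then recruit the shared subunit gp130, encoded by IL6ST, to activate JAK kinases and the transcription factor STAT3. IL24 belongs to the IL-10 family and signals through IL20RB paired with IL20RA or IL22RA1, again to STAT3. IL1A and IL1B encode the IL-1 cytokines, which bind IL1R1 and IL1RAP and signal through MYD88 and IRAK kinases. The IL-1β precursor has to be cut, classically by caspase-1 in an inflammasome, and leaves the cell through gasdermin pores, whereas the IL-1α precursor is already active when a dying cell releases it. Transcripts of this kind are short-lived, because AU-rich stretches with the pentamer ATTTA in their 3′ untranslated region (3′ UTR) recruit decay factors such as the ZFP36 protein. In cancer cells these cytokines are best known as products of stress and NF-κB or AP-1 signaling.

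On GRCh38 the deposited table placed IL6 (ENSG00000136244) at chr7:22725884-22732002 on the plus strand and LIF (ENSG00000128342) at chr22:30240447-30246851 on the minus strand. IL11 (ENSG00000095752) lay at chr19:55364389-55370463 on the minus strand and IL24 (ENSG00000162892) at chr1:206897443-206904139 on the plus strand. IL1A (ENSG00000115008) at chr2:112773915-112784590 and IL1B (ENSG00000125538) at chr2:112829751-112836903 were neighbours on the minus strand. The promoter windows of RefSeq (GRCh38.p14, 250 bases before to 50 after the start) were matched for 5 of the 6 genes, and LIF was not matched. 4 are shown 5′ to 3′ with capitals at each match to a searched motif. IL6 was chosen because it rose the most. IL11 was chosen as the most abundant member under DdBIC by TPM, which is scaled by gene length, although LIF had more counts there. IL24 was chosen because the largest part of its rise was left with hemin, and IL1A because it held the most AP-1 matches. The windows shown are at chr7:22726950-22727249 (plus strand), chr19:55370414-55370713 (minus), chr1:206897193-206897492 (plus) and chr2:112784444-112784743 (minus). For IL1A, the start nearest to the deposited gene start was used, of the 2 starts listed.
IL6: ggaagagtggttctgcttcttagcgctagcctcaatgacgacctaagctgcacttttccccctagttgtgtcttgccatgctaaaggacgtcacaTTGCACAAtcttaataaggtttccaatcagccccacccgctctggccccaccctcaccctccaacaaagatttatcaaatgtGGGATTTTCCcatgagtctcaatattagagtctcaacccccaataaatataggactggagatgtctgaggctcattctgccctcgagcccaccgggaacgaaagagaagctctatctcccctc
IL11: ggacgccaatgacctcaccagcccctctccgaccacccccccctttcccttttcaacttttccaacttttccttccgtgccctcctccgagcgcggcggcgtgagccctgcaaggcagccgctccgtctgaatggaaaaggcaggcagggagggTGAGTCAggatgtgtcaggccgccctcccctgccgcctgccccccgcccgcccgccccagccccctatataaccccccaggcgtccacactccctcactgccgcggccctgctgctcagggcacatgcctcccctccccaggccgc
IL24: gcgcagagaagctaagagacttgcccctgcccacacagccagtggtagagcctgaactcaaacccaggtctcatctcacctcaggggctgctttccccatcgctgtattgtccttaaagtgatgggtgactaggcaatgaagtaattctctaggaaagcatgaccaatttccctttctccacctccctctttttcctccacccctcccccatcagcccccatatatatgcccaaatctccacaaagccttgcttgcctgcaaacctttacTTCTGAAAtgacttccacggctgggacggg
IL1A: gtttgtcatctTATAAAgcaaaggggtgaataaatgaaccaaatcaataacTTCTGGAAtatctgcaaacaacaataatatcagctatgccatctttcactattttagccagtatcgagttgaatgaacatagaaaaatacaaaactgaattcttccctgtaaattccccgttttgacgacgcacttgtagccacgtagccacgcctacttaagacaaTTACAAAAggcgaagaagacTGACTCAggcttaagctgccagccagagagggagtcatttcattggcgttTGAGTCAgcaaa

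10 motifs were searched on both strands, and the share with a match among 27303 promoter windows of that length is given beside each. These were the first window listed for each gene symbol, and are called all windows below. The AP-1 motif TGANTCA stood once in IL11, 96 bases before the start, and at 2 places in IL1A, 12 before and 38 after it, against a match in 7.76% of all windows. The κB motif stood in IL6, at 73 bases before the start, and was found in 5.72% of all windows. The C/EBP motif TTNNGNAA stood in 4 members (IL6, IL24, IL1A and IL1B), but also in 37.2% of all windows. The STAT motif TTCNNNGAA stood in IL1B (7.88% of all windows). The TATA box letters TATAAA stood in IL1A (12%), at position -239 relative to the start. Other spellings of the TATA box were not searched, so their presence in any window was not tested. No member window held CRE (TGACGTCA, 1.98% of all windows), EGR (GCGNGGGCG, 9.28%), the Nur77 response element NBRE (AAAGGTCA, 1.21%), CHOP/ATF4 (TGATGNAA, 3.67%) or the CArG box (1.29%). No motif was therefore common to the 5 windows, and a match or its absence in these letters describes the window only.

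The 3′ UTRs were read from GENCODE 29 transcripts, and the stretch of 30 bases with the most ATTTA pentamers is shown for each gene, with the pentamers in capitals, because this element is what the members' transcripts have in common.
IL6: ttttaattatttttaATTTAttaatATTTA
LIF: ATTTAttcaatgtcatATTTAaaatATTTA
IL11: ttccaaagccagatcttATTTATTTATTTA
IL24: agattcttgtATTTAttacaactctATTTA
IL1A: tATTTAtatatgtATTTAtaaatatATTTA
IL1B: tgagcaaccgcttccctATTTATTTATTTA

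All 6 transcripts held the longer element TATTTAT, which is found in 12.6% of 3′ UTRs of like length for IL6, 17.5% for IL1B, 21.6% for IL24, 28.1% for IL1A, 36.5% for IL11 and 57.8% for LIF. The 3′ UTR of IL6 had 6 ATTTA in 429 bases, which 0.828% of 3′ UTRs of like length (0.8 to 1.25 times) reached. That of IL1B had 6 in 610 bases, reached by 1.58%, and that of IL11 had 9 in 1618 bases, reached by 6.26%. LIF had 7 in 3204 bases and IL24 had 3 in 806 bases, reached by 52.1% and 26.1% of their like-length sets, while IL1A had 5 in 1152 bases, reached by 19.0%. Pentamers were thus dense for the length in IL6, IL1B and IL11 and ordinary in LIF and IL24.

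Library totals were 37951275 to 44358912 counts in all, and those of the libraries with both agents (40464308 to 44358912) were above those of Ctrl (38781606 to 39850094) and Hemin (37951275 to 40304459). Where a gene was not counted at all, up to 3 counts remain possible, which is 0.0676 to 0.0791 CPM (the count scaled to a common library size), for counting error only. All 6 members were among the 14287 genes that passed the low-count filter. The label check was HMOX1, the heme-degrading enzyme that heme induces: its mean was 8.71 CPM in Ctrl and 7.82 under DdBIC, but 63.2 after hemin and 168.5 after the combination. The melanoma transcription factor SOX10 was at 549 to 741 CPM in the group means, whereas the pigment genes PMEL, MLANA, TYR and DCT were each below 1 CPM. The melanoma list of 10 genes summed to 670 to 699 CPM in Ctrl, 767 to 822 under DdBIC, 597 to 607 under hemin and 605 to 690 under the combination, and of its 8 tested genes 2 were higher and 1 lower with DdBIC, and 1 lower with hemin added. Of 9 leukocyte markers, PTPRC and MS4A1 were among those at 0 in every library, and the sum of the list was 3.07 to 3.70 CPM in Ctrl and 2.90 to 4.49 under DdBIC, 2.87 to 3.29 under hemin and 3.09 to 3.58 under the combination, with 0 of the 4 tested markers called by edgeR with DdBIC or with hemin added (0 also at an unadjusted p under 0.05). The fibroblast list (5 genes, COL1A2 at no more than 6 counts) summed to 28.1 to 28.8 CPM in Ctrl and 21.95 to 22.95 under DdBIC, and to 25.4 to 28.4 under the combination. Of its 4 tested genes, 2 were lower with DdBIC and 2 higher with hemin added. The keratinocyte list (6 genes, KRT1 at 0 and KRT5, TP63 and DSG3 at no more than 2 counts) summed to 53.1 to 56.4 CPM in Ctrl, 59.0 to 66.1 under DdBIC and 50.1 to 57.9 under the combination, and of its 2 tested genes 1 was higher with DdBIC and 1 lower with hemin added. The endothelial list (4 genes) summed to 4.74 to 6.95, 5.15 to 5.87 and 5.31 to 6.36 CPM in these groups, with 1 gene higher with DdBIC and 0 called by edgeR with hemin added (0 also at an unadjusted p under 0.05). Over all genes tested, 20.0% were higher and 17.2% lower with DdBIC, and 13.5% higher and 18.4% lower with hemin added. The part of these lists in the cytokine values was not tested. In bulk RNA, a change in the number of expressing cells and a change in RNA per cell cannot be told apart.

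The first comparison asked how the cytokines responded to DdBIC. All 6 were higher in every DdBIC library than in any Ctrl library, and their rises ranged from 2.89-fold for IL1B to 23.9-fold for IL6 (edgeR's quasi-likelihood test, Benjamini-Hochberg adjusted over all genes tested). Of all genes tested, 37.2% changed and 20.0% rose, and 25.9% were higher without overlap between the groups. With upper-quartile scaling, 40.0% of the called genes were higher rather than 53.8%, and the 6 cytokines were still called higher. By size of the rise, IL6 ranked 25, IL11 79, IL24 95, LIF 121, IL1A 198 and IL1B 232 of 14287 genes. Together the 6 genes took 0.0080 to 0.0084% of all counts in the Ctrl libraries and 0.041 to 0.046% in the DdBIC libraries.

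**Figure D1:**
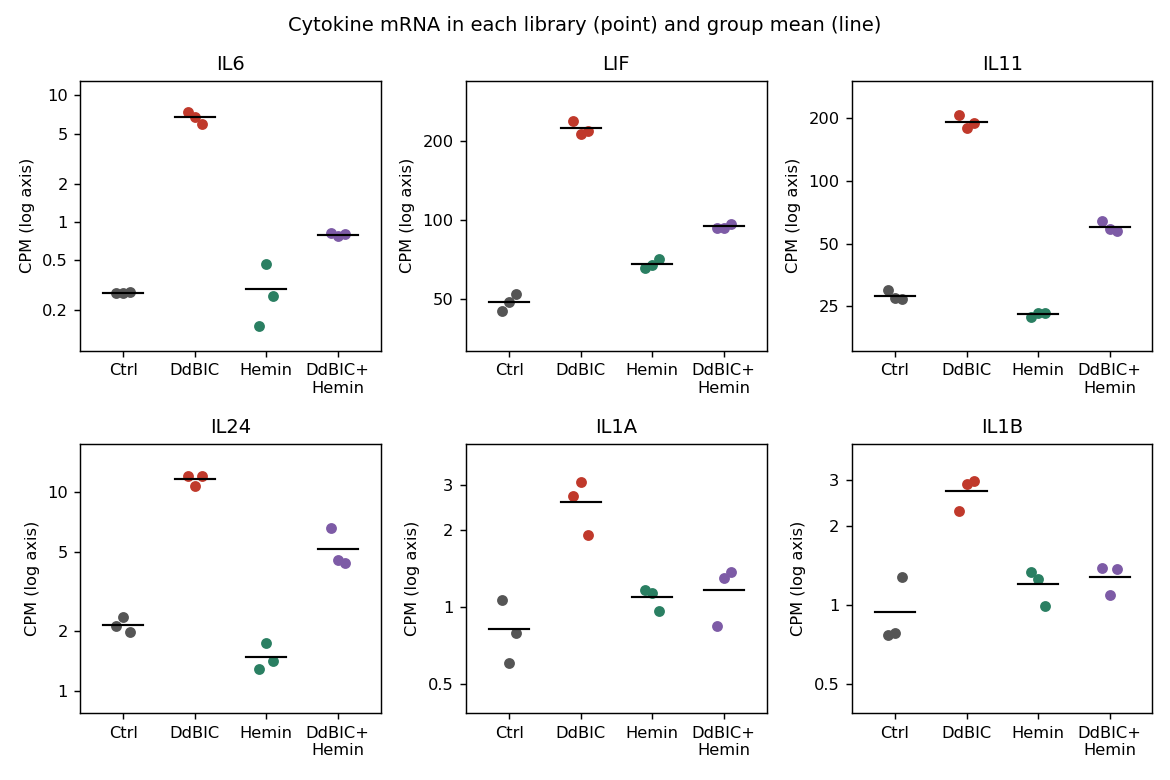
CPM on a log axis for each library (points) with the group mean (line), one panel per gene, 3 libraries per group. All DdBIC points lie above all Ctrl points in each panel, and the points with both agents lie below the DdBIC points.

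IL6, the prototype of the family and a driver of the acute phase response, was counted 11, 11 and 11 times in the Ctrl libraries and 286, 277 and 251 times in the DdBIC libraries. The Ctrl libraries were alike and near the bottom of the measurable range, so the fold change rests on a small baseline. Equal counts this low make the Ctrl SD below smaller than counting error. The Hemin libraries, at a like level, had 6, 19 and 10 counts. The mean went from 0.277 ± 0.00424 CPM (SD, n = 3) to 6.70 ± 0.722 CPM, a log2 fold change of 4.58 ± 0.27 (SE; edgeR adjusted p = 2.55e-07). The 95% interval of the fold was 15.9 to 36.1. On log2(TPM + 1) the rise of IL6 was 3.25 on the log2 scale.

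LIF, which maintains stem cells and signals through LIFR and gp130, had 1816, 1944 and 2041 counts in Ctrl and 9245, 8583 and 9209 with DdBIC. Its level rose from 48.8 ± 3.58 to 222 ± 14 CPM (SD, n = 3), 4.56-fold, with a log2 fold change of 2.19 ± 0.061 (SE; edgeR adjusted p = 7.15e-10). IL11, a cytokine linked to fibrosis and platelet formation, had 1203, 1091 and 1065 counts in Ctrl and 8026, 7233 and 7987 with DdBIC. Its level rose from 28.2 ± 1.44 to 191 ± 14.5 CPM, 6.78-fold, with a log2 fold change of 2.76 ± 0.064 (SE; edgeR adjusted p = 2.02e-10). These 2 genes had the most counts in untreated cells, and the intervals of the fold, 4.16 to 5.0 for LIF and 6.14 to 7.48 for IL11, did not meet.

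IL24, known for killing melanoma cells when overexpressed, had 85, 93 and 77 counts in Ctrl and 466, 435 and 509 with DdBIC. It rose 5.40-fold, from 2.14 ± 0.188 to 11.6 ± 0.758 CPM (SD, n = 3), with a log2 fold change of 2.43 ± 0.17 (SE; edgeR adjusted p = 8.74e-07).

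IL1A had 43, 24 and 31 counts in Ctrl and 105, 125 and 81 with DdBIC. It rose 3.11-fold, from 0.822 ± 0.233 to 2.56 ± 0.593 CPM (SD, n = 3; edgeR adjusted p = 0.000542). IL1B had 31, 31 and 50 counts in Ctrl and 89, 118 and 126 with DdBIC, and rose 2.89-fold, from 0.943 ± 0.291 to 2.72 ± 0.377 CPM (edgeR adjusted p = 0.000275). The IL-1 genes had the smallest fitted rises, and the interval of the fold was 2.08 to 4.64 for IL1A and 2.06 to 4.06 for IL1B. The first of these overlapped the intervals of LIF (4.16 to 5.0) and IL24 (4.18 to 6.98), and the second overlapped neither. On log2(TPM + 1) the rise of IL1A was 0.96 on the log2 scale against 1.64 from counts, since the added 1 is of the size of its level and shrinks the change of low genes.

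The second comparison asked what hemin did to the DdBIC response. All 6 cytokines were lower in every library with both agents than in any library with DdBIC alone, against 24.4% of all genes without overlap in that direction. All 6 fell by the test, where 31.9% of the genes tested changed and 18.4% fell. Upper-quartile scaling put 59.2% of the called genes higher rather than 42.4%, and again left all 6 calls in place. This comparison and the first share the DdBIC libraries, so they are not independent of each other.

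IL6 fell the most. Its counts were 33, 31 and 35 with both agents, or 0.795 ± 0.0226 CPM (SD, n = 3), 8.41-fold below DdBIC alone, and it decreased by 3.07 on the log2 scale (edgeR adjusted p = 3.19e-06). IL11 had 2583, 2372 and 2520 counts, or 60.1 ± 3.32 CPM, and was 3.18-fold below (edgeR adjusted p = 1.26e-08). LIF had 3784, 3747 and 4239 counts, or 94.4 ± 1.94 CPM, and was 2.35-fold below (edgeR adjusted p = 6.70e-08).

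IL24 had 266, 183 and 192 counts, or 5.17 ± 1.22 CPM, the first library standing above the other two, and was 2.24-fold below DdBIC alone (edgeR adjusted p = 0.000214). IL1A had 34, 52 and 60 counts, or 1.17 ± 0.286 CPM, and was 2.19-fold below (edgeR adjusted p = 0.00568). IL1B had 56, 44 and 60 counts, or 1.28 ± 0.163 CPM, and was 2.12-fold below (edgeR adjusted p = 0.00279). Under log2(TPM + 1) IL1A fell by 0.73 on the log2 scale against 1.13 from counts.

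**Figure D2:**
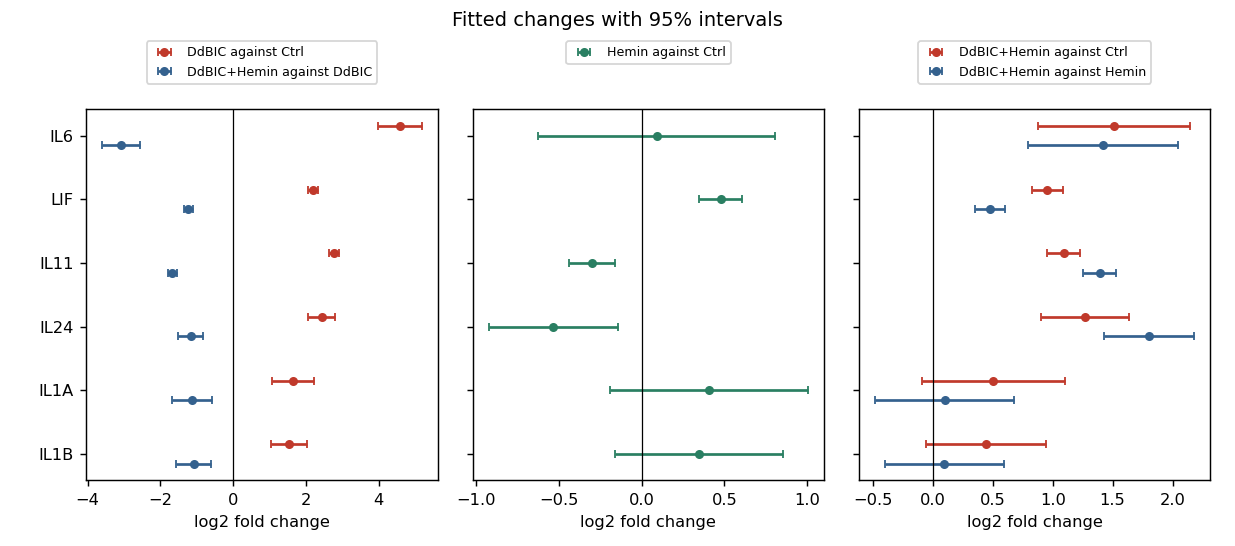
Log2 fold changes of the 6 genes from edgeR with 95% intervals (bars), with the treatment comparisons in 3 panels that have axes of their own. Every interval for DdBIC against Ctrl lies above 0 and every interval for DdBIC+Hemin against DdBIC below 0, whereas with hemin alone LIF lies above 0, and IL11 and IL24 below it (unadjusted intervals, IL24 not called).

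Hemin alone separated LIF from IL11. LIF rose with hemin, to 2586, 2718 and 2710 counts (67.8 ± 2.75 CPM, SD, n = 3), 1.39-fold above Ctrl (edgeR adjusted p = 0.00118). IL11 fell, to 881, 936 and 891 counts (22.9 ± 0.539 CPM), 1.23-fold below Ctrl (edgeR adjusted p = 0.0216). In this comparison only 4.06% of the genes tested changed, 1.47% higher and 2.59% lower. The IL11 call was lost when Ctrl replicate 1 or any of the 3 Hemin libraries was left out, with adjusted p = 0.0795 without Ctrl replicate 1 and 0.0803, 0.0725 and 0.0589 without Hemin replicates 1, 2 and 3. LIF kept its call without each library in turn.

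The ratio of LIF to IL11 counts within a library, which no scaling between libraries can move, was 1.51, 1.78 and 1.92 in Ctrl and 2.94, 2.90 and 3.04 with hemin. With DdBIC it was 1.15, 1.19 and 1.15, and with both agents 1.47, 1.58 and 1.68. The Hemin libraries were therefore apart from all others on the high side and the DdBIC libraries on the low side, and the libraries with both agents overlapped Ctrl. For Hemin against Ctrl and for DdBIC against Ctrl the exact permutation test gave p = 0.1 (two-sided), which is the smallest p that 3 against 3 libraries allow. This ratio was chosen after the values were seen. For Hemin against Ctrl the ratios of IL6 to LIF, IL24 to IL11 and IL1A to IL1B overlapped between the groups (exact permutation p = 0.4, 0.3 and 0.9). For DdBIC against Ctrl, and again for both agents against DdBIC, the ratios of IL6 to LIF and of IL24 to IL11 were also without overlap (exact permutation p = 0.1 each), and that of IL1A to IL1B overlapped.

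The other 4 members did not pass the test with hemin alone. IL24 had 51, 70 and 54 counts, 1.48 ± 0.228 CPM, and every Hemin library was below every Ctrl library, as in 12.9% of all genes tested, with a log2 fold change of -0.53 (95% interval -0.92 to -0.14; edgeR adjusted p = 0.139). IL1A had 46, 46 and 37 counts and IL1B 53, 51 and 38, and the intervals of their log2 fold changes, -0.19 to 1.0 and -0.16 to 0.85, both held 0 (edgeR adjusted p = 0.522 and 0.515). IL6 had 6, 19 and 10 counts, a spread of 1.37 on the log2 CPM scale within one group, with a log2 fold change of 0.091 (interval -0.62 to 0.81; edgeR adjusted p = 0.936). Without Hemin replicate 2 the IL6 value turned to -0.42, so not even its direction could be read at this depth.

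The next pair of comparisons asked how much of the DdBIC response was left with hemin present. IL6, LIF, IL11 and IL24 were higher with both agents than in Ctrl, by 2.85-, 1.94-, 2.13- and 2.41-fold (edgeR adjusted p = 0.00543, 3.14e-06, 2.03e-06 and 0.000581), where 12.4% of the genes tested changed, 5.66% higher and 6.74% lower. With library totals alone as scaling, 34.4% rather than 45.6% of the called genes were higher in this comparison. IL1A and IL1B were not called, at 1.42- and 1.36-fold (intervals 0.941 to 2.14 and 0.960 to 1.93; edgeR adjusted p = 0.274 and 0.257).

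Against hemin alone, where 6.80% of the genes tested changed and 3.71% rose (42.3% rather than 54.6% of the called genes were higher with library totals alone), the same 4 genes were called. IL24 was 3.49-fold higher (edgeR adjusted p = 0.000128), which ranked 36 of 14287 genes. IL11 was 2.62-fold higher (edgeR adjusted p = 7.22e-07) and LIF 1.39-fold (edgeR adjusted p = 0.000688). IL6 was 2.67-fold higher (edgeR adjusted p = 0.0125), a call that was lost in a fit of only these 2 groups (adjusted p = 0.102) and without Hemin replicate 3 (adjusted p = 0.0515). On log2(TPM + 1), the IL6 differences from Ctrl and from hemin alone were 0.70 and 0.73, against 1.51 and 1.42 from counts. IL1A and IL1B were at 1.07-fold each, with intervals of 0.717 to 1.60 and 0.759 to 1.51 (edgeR adjusted p = 0.887 and 0.869).

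Expressed in CPM, the rise with DdBIC in the presence of hemin was 39.1% of the rise in its absence for IL24, 22.8% for IL11, 15.3% for LIF and 7.78% for IL6. For IL1B and IL1A it was 4.67% and 4.44%, values whose with-hemin part did not differ from 0 by the test. The interaction, which is the log2 effect of DdBIC with hemin minus that without, is a different quantity, since it compares log2 folds and not rises in CPM. It was -3.16 ± 0.40 (SE) for IL6, -1.71 ± 0.083 for LIF, -1.37 ± 0.087 for IL11, -1.54 ± 0.37 for IL1A and -1.43 ± 0.32 for IL1B (edgeR adjusted p = 0.000316, 3.30e-07, 1.99e-06, 0.0156 and 0.00965). For IL24 it was -0.63 ± 0.24 (interval -1.15 to -0.11; edgeR adjusted p = 0.0981), and leaving out DBIC+Hemin replicate 1, its high library, gave -0.84 (adjusted p = 0.0127). Of the genes tested, 16.6% had a changed interaction, 6.40% higher and 10.2% lower, and upper-quartile scaling put 55.4% rather than 38.5% of them higher.

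The order of levels between genes was read from TPM, which the authors scaled by gene length. In Ctrl the order was IL11 (31.3 ± 1.94 TPM, SD, n = 3), LIF (26.5 ± 2.0), IL24 (2.59 ± 0.269), IL1B (1.19 ± 0.409), IL1A (0.791 ± 0.227) and IL6 (0.453 ± 0.154). The ranges of IL1B and IL1A overlapped, as did those of IL1A and IL6, so the lower end of the order was not resolved. With DdBIC the levels were IL11 208 ± 14.7, LIF 119 ± 7.12, IL24 14.2 ± 0.874, IL6 12.8 ± 1.84, IL1B 3.56 ± 0.413 and IL1A 2.50 ± 0.567 TPM. The range of IL6 overlapped that of IL1A in Ctrl and that of IL24 with DdBIC.

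With hemin alone LIF (36 ± 1.21 TPM) was above IL11 (25.4 ± 0.844), the reverse of their order in the other 3 groups, followed by IL24 (1.81 ± 0.287) and IL1B (1.65 ± 0.313), whose ranges overlapped, IL1A (1.04 ± 0.110) and IL6 (0.435 ± 0.289). With both agents IL11 led at 63.3 ± 2.76 TPM, then LIF at 49.5 ± 1.68 and IL24 at 6.84 ± 1.48, and the ranges of IL1B (1.63 ± 0.266) and IL6 (1.36 ± 0.207) overlapped, as did those of IL6 and IL1A (1.10 ± 0.282). The length implied by the deposited FPKM of IL6 differed 1.71 times between libraries, against a median of 1.09 over genes and 1.03 to 1.22 for the other members, so the TPM of IL6 carries an added uncertainty.

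**Figure D3:**
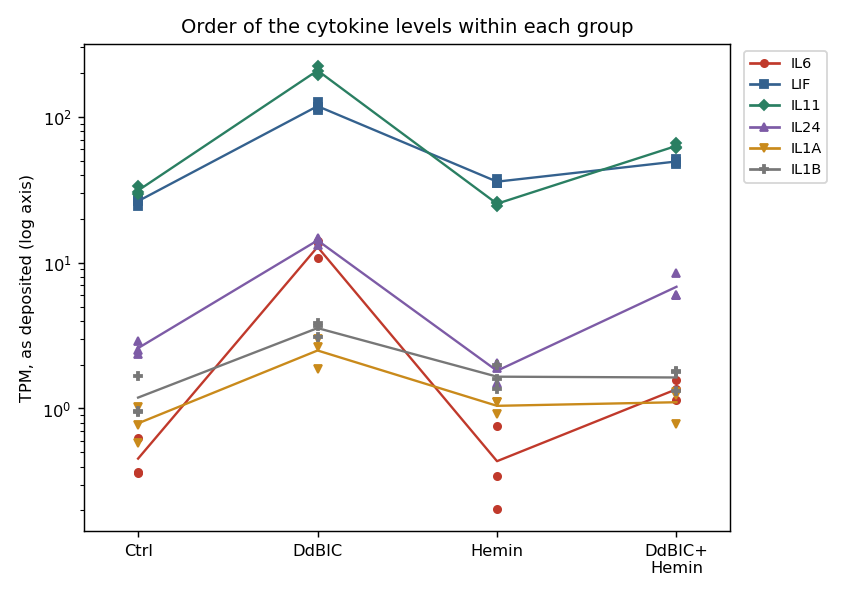
Deposited TPM on a log axis for each library (points) and group means (joined by lines), by group. LIF and IL11 stay above the other 4 genes and change places with hemin alone, and the points of IL6 overlap those of IL1A in Ctrl and those of IL24 with DdBIC.

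Across the 12 libraries the members' log2 CPM correlated with Pearson's r from 0.728 (IL24 and IL1A) to 0.980 (IL11 and IL24). These values describe 4 groups of 3 libraries, which share their treatment, so the points are not independent. Among 12567 candidate genes (mean level of 1 CPM or more), the one most like IL6 was SERPINB2, the inhibitor PAI-2 (r = 0.990), followed by ACBD3, BCL10, AVPI1 and PIM1. LIF was most like PPP1R15A, the phosphatase subunit GADD34 of the integrated stress response (0.997), then JUN, RHOB, RCAN1 and PLK3. IL11 was most like ERRFI1, a feedback inhibitor of the EGF receptor (0.997), then OSER1, RPS6KA3, the IL-6 family gene CLCF1 and ITPRIP. IL24 was most like DUSP10, a MAP kinase phosphatase (0.984), then IL11, GDNF, TNFSF9 and FRMD4A. The values were lower for the sparser IL1A, led by EPS15L1 (0.966), then NPIPB3, SMC5, TP53RK and RNF219, and for IL1B, led by ZUFSP (0.971), then ZNF75A, YTHDF2, ARF6 and DNAJC2.

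Of the 8 other IL-6 family ligands, 4 were tested, and 3 of these rose with DdBIC, where 20.0% of all genes tested rose. CLCF1, a ligand of the CNTF receptor, rose from 25.3 to 90.6 CPM (log2 fold change 1.84, edgeR adjusted p = 3.23e-08) and fell by 1.13 on the log2 scale when hemin was added. CNTF and EBI3 rose by 0.67 and 0.63 (edgeR adjusted p = 0.0445 and 0.0168) from 4.50 and 2.98 CPM. With hemin added, CLCF1 alone of the 4 was called lower. CNTF was at 7.16 CPM with DdBIC and 6.78 with both agents, and EBI3 at 4.62 and 3.44. OSM, which lies beside LIF, had at most 2 counts in a library. Among the receptors for IL-6 family ligands and IL24, 9 of 11 were tested and 1 changed with DdBIC, where 37.2% of all genes tested changed. It was IL6ST, the shared subunit gp130, which rose from 98.8 to 150.1 CPM (log2 fold change 0.60, edgeR adjusted p = 3.34e-06) and fell by 0.49 with hemin added (adjusted p = 2.27e-05). The specific receptors did not pass the test in either comparison. In Ctrl and DdBIC, IL6R was at 13.1 and 13.0 CPM, LIFR at 33.8 and 29.7, IL11RA at 6.84 and 6.04 and OSMR at 85.4 and 80.0. LIFR fell with hemin alone, by 0.35 (edgeR adjusted p = 0.0198). Of the IL24 receptors, IL20RB (1.94 and 2.45 CPM) and IL22RA1 (2.39 and 2.01) were present at low levels and IL20RA had at most 2 counts.

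Downstream of the receptors, 2 of the 10 tested JAK and STAT genes were higher with DdBIC and 2 lower, with a median log2 fold change of 0.072 against -0.0082 over all genes. JAK2 rose from 9.56 to 13.3 CPM (0.47, edgeR adjusted p = 0.00567), and JAK1 fell by 0.12 (adjusted p = 0.00745). Over all genes tested, 20.0% rose and 17.2% fell. Of 18 tested STAT3 feedback genes and targets, 10 rose and 0 fell with DdBIC, with a median of 0.65, and with hemin added 7 fell and 1 rose (18.4% and 13.5% over all genes), with a median of -0.52. The difference between these lists was not tested. JUNB, an AP-1 subunit, rose from 57.6 to 725 CPM (3.65, edgeR adjusted p = 2.03e-09) and fell by 3.02. SOCS1, a JAK inhibitor, rose from 0.866 to 3.29 CPM (1.92, adjusted p = 2.48e-05), and the survival gene MCL1 from 269 to 886 CPM (1.72, adjusted p = 7.03e-08). SOCS3, the feedback inhibitor of gp130, rose from 19.3 to 41.5 CPM and stood at 15.9 CPM with both agents. Several of these genes also answer to other pathways, so the list does not measure STAT3 activity.

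On the IL-1 side, 5 of 15 tested receptor and signaling genes rose with DdBIC and 1 fell, with a median of 0.053, where 20.0% of all genes tested rose and 17.2% fell. IRAK2, a kinase-like adaptor of the receptor complex, rose from 1.88 to 12 CPM (2.67, edgeR adjusted p = 1.71e-08) and fell by 1.76 with hemin added. The ubiquitin ligases PELI1 (1.09, adjusted p = 1.23e-07) and TRAF6 (0.63, adjusted p = 0.00244) also rose, and fell by 0.75 and 0.62. The receptor IL1R1 itself was at 0.244 CPM in Ctrl and 0.202 with DdBIC, while IL1RAP was at 29 and 30 CPM. The antagonist IL1RN had 0 counts in every library, and of the 9 other IL-1 family ligands the 2 tested, IL37 and IL36G, did not pass the test.

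Among IL-1 processing and inflammasome genes, 13 of 19 were tested, 1 rose and 2 fell with DdBIC, with a median of 0.036, where 20.0% of all genes tested rose and 17.2% fell. The sensor NLRP3 rose from 0.503 to 1.05 CPM (1.05, edgeR adjusted p = 0.00808), and the calpains CAPN1 and CAPN2, proteases that can cut IL-1α, fell by 0.23 and 0.14. CASP1, the classical IL-1β protease, had at most 2 counts in a library, and GSDMC, the gasdermin of the study's title, at most 6. Other gasdermins and caspases of the list were present. In Ctrl and DdBIC, GSDMD was at 61.8 and 62.3 CPM and GSDME at 9.80 and 8.41. CASP4 was at 29.2 and 29.9 CPM and CASP8 at 18.4 and 17.9. The study itself reported cleavage of GSDMC protein in A375 cells. No protein was measured here, so these counts describe transcripts only.

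Of 10 factors that shorten or lengthen the life of cytokine transcripts, 7 rose and 1 fell with DdBIC (median 0.56), where 20.0% of all genes tested rose and 17.2% fell. With hemin added, 7 fell and 2 rose (median -0.44, against -0.010 over all genes), where 18.4% of all genes fell and 13.5% rose. ZFP36, which binds ATTTA elements and promotes decay, rose from 11.6 to 227 CPM (4.29, edgeR adjusted p = 1.00e-05) and stood at 8.96 CPM with both agents. Its DdBIC libraries were at 169, 361 and 149 CPM, the second standing far above the others and raising the mean. ZC3H12A, the nuclease Regnase-1, rose from 7.96 to 61.6 CPM (2.95, adjusted p = 2.02e-10) and stood at 12.8 CPM with both. ZFP36L1, a relative of ZFP36, rose from 84.4 to 189 CPM (1.17, adjusted p = 6.27e-07). ARID5A, which stabilizes IL6 transcripts, was also among the 7 that rose (0.93), and the decay factor KHSRP and the stabilizer ELAVL1 did not pass the test with DdBIC.

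**Figure D4:**
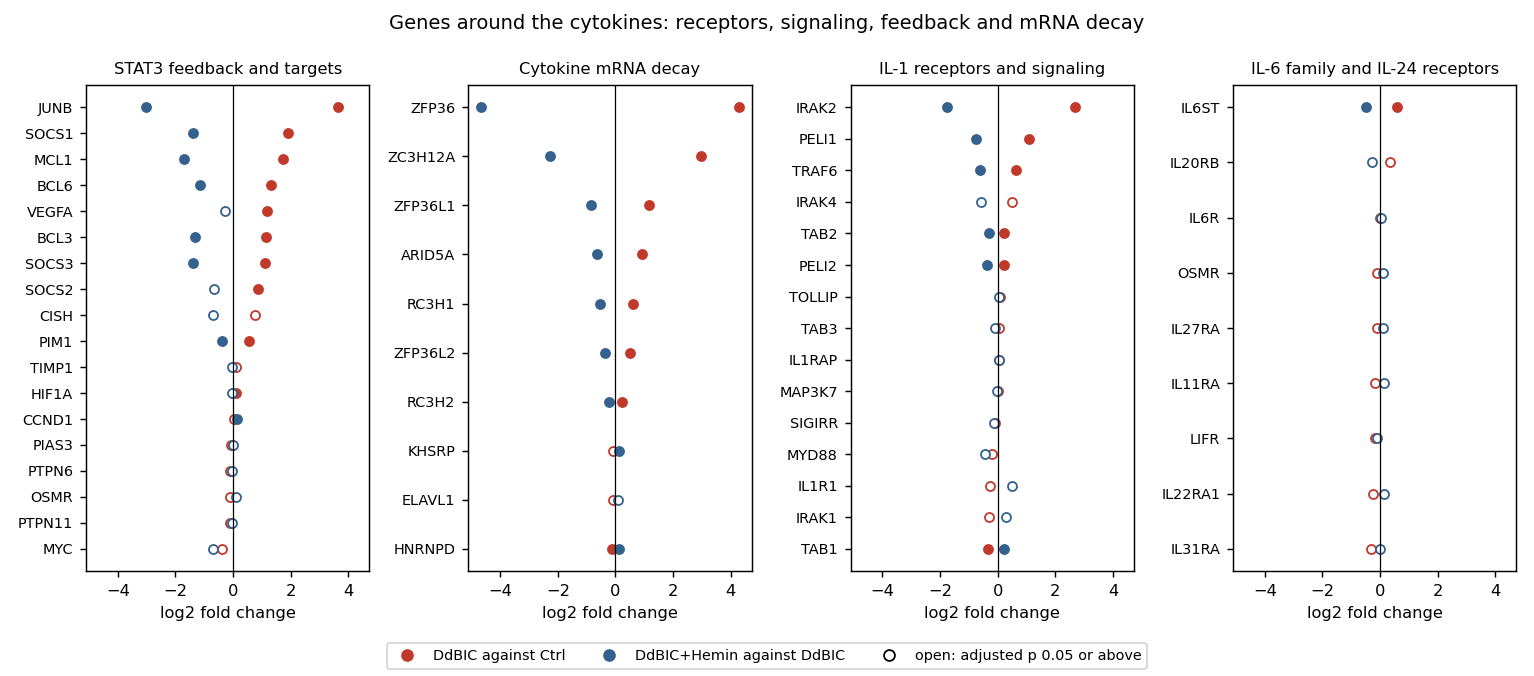
Log2 fold changes of genes tested in 4 pathway lists, for DdBIC against Ctrl (red) and DdBIC+Hemin against DdBIC (blue), filled where the edgeR adjusted p was under 0.05. JUNB, ZFP36, ZC3H12A and IRAK2 lie far from 0 in opposite directions in the 2 comparisons, and among the receptors IL6ST alone is filled.

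The 6 cytokines were not the only secreted factors to respond. Of 22 further cytokine genes, 17 were tested, and 12 rose and 0 fell with DdBIC (median 0.91), while 11 fell and 0 rose with hemin added (median -0.60). Over all genes tested, 20.0% rose with DdBIC and 18.4% fell with hemin added. TNF went from 0.0336 to 7.10 CPM and was at 0.0469 CPM with both agents (edgeR adjusted p = 3.96e-06 and 6.21e-06). CSF2, the factor GM-CSF, went from 0.134 to 5.24 CPM and to 0.568 with both, and the chemokine CCL20 from 0.111 to 3.54 and to 0.195 CPM. In Ctrl these 3 genes were at or near the limit of detection, so no fold is given.

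Genes within reach of the members were counted in the same way. Within 500 kb of IL6, 6 genes were tested and the calls under DdBIC were NUPL2 (0.26) and STEAP1B (-0.26). Around LIF, 4 of 19 tested genes rose and 1 fell, and around IL11, 8 of 33 rose and 2 fell, the largest rise being that of the phosphatase PTPRH (1.62). Around IL24, 4 of 11 rose and 2 fell, and the relatives of IL24 in this cluster, IL19, IL20 and IL10, had 7, 9 and 159 counts over all 12 libraries, and IL10, the one of them tested, had a log2 fold change of 0.067 with DdBIC (edgeR adjusted p = 0.941). IL1A and IL1B lie 45161 bp apart and count among each other's 13 tested neighbours, of which 4 rose and 1 fell in each case. These counts can be read against the 20.0% of all genes tested that rose and the 17.2% that fell. With hemin added, 6 of the 11 IL24 neighbours fell and 0 rose, 8 of 33 fell and 2 rose around IL11, 3 of 19 fell and 2 rose around LIF, 3 of 13 fell and 1 rose around IL1A and IL1B, and 0 of 6 fell and 1 rose around IL6, against 18.4% of all genes that fell and 13.5% that rose. No gene of the table overlapped a member, but in GENCODE 29 IL6 overlaps STEAP1B and an antisense gene on the opposite strand, and LIF overlaps 2 antisense genes. Whether the counting used strand is not given in the sources used here, so reads of these partners could not be told apart.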

How the data were processed

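Total RNA of A375 cells was extracted with Trizol, and libraries were made and sequenced by a company, in 4 groups of 3. Per the labels, the submitters' processing notes name Trim Galore, Subread, featureCounts and hg38. The versions, annotation and strand setting are not given in the sources used here. The authors deposited, for each gene and library, a read count without normalization, a TPM value scaled by length and to a common sum, and an FPKM value scaled by length and depth. The counts were tested, TPM was used for levels between genes and as an alternative, and FPKM for the check of implied length.

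The members and gene lists were chosen with earlier results of these data known, so no list is independent evidence. Genes were filtered with filterByExpr of edgeR 4.0.16 (R 4.3.3), which kept 14287, and scaled by TMM. CPM uses these library sizes. One mean per group was fitted over all 12 libraries (8 residual degrees of freedom, robust), and quasi-likelihood tests with Benjamini-Hochberg adjustment over all genes tested called genes at an adjusted p under 0.05. SEs were derived from each log2 fold change and its F statistic. The steps were tested on simulated data. Replicates correlated across genes at 0.993 to 0.994 and no libraries were identical. Totals of 37951275 to 44358912 counts per library set the precision, and low counts such as those of IL6 in Ctrl limit it.

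Genes of a list were named if they were among its 3 largest called changes with a mean of at least 1 CPM in a group compared, or were receptors of the members, IL1RN, SOCS3 or HMOX1. SOX10, the pigment genes, OSM, IL10, IL20RA, IL37, IL36G, CASP1, CASP4, CASP8, GSDMC, GSDMD, GSDME, ELAVL1, ARID5A, KHSRP and the neighbours named were chosen after their values were seen. Alternatives were DESeq2 1.42.0, upper-quartile factors, library totals, no filter, at least 10 counts in every library, the replicate number as a block, only the groups compared, each library left out, a log2 fold change of at least 1, and limma 3.58.1 on log2(TPM + 1) and log2(TPM + 0.1). Some list genes are not reported here by name.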

Additional observations from a re-analysis of the deposited data

Results flagged for a closer look

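For 5 cytokines, the response to DdBIC was not the same in the presence and absence of hemin by the test of the interaction (edgeR's quasi-likelihood test, adjusted over all genes tested, with the sign as DdBIC effect with hemin minus without). The difference in log2 fold change was -3.16 for IL6, -1.71 for LIF, -1.37 for IL11, -1.54 for IL1A and -1.43 for IL1B. In all 5 the interval lay below 0, and each stayed called without any one of the 12 libraries. All use the same 12 libraries, and 10.2% of all genes tested had a lower interaction. On log2(TPM + 1) the IL1A difference was smaller, at -0.93, and still called by limma.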

How the results depend on the processing

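For the 36 results of a member and a comparison, 762 of 780 checks under the alternatives kept the direction and the side of the threshold, and DdBIC against Ctrl and DdBIC+Hemin against DdBIC each kept all 6 member calls. IL6 could not be tested with at least 10 counts in every library, because a Hemin library has 6. A log2 fold change of at least 1 left 502 genes for DdBIC against Ctrl, 323 for DdBIC+Hemin against DdBIC, 16 for Hemin against Ctrl, 82 for DdBIC+Hemin against Ctrl, 46 for DdBIC+Hemin against Hemin and 278 for the interaction, and 0 members for Hemin against Ctrl, by construction dropping LIF (0.48) and IL11 (-0.30) there and LIF against Ctrl (0.95) and against Hemin (0.48). For Hemin against Ctrl, 580 genes became 881 with DESeq2, 322 and 324 with limma on log2(TPM + 1) and log2(TPM + 0.1), and 272 to 623 with single libraries left out, with 1 to 2 members. IL6 in this comparison was -0.031 and -0.15 with limma and -0.42 to 0.40 with libraries left out, and IL11 was -0.32 to -0.26. For DdBIC+Hemin against Hemin, 971 genes became 569 with only the groups compared, where IL6 kept 1.42 without its call, and 612 to 934 with libraries left out, where IL6 was 1.11 to 1.93, IL1A -0.032 to 0.29 and IL1B -0.021 to 0.20. IL1B was -0.0096 and -0.014 there with limma. The IL24 interaction was -0.84 to -0.50 with libraries left out. The cause of these shifts was not tested.

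The replicate numbers were not taken to pair the samples, since no same-numbered pair correlated above 0.1. The correlation of deviations was -0.046 to 0.081 over 18 same-numbered pairs and -0.070 to 0.076 over other pairs. As a hint from the data only, 8 of 12 libraries correlated best with their own number, where 4 would by chance. With the number as a block, 5084 rather than 5310 genes were called for DdBIC against Ctrl, IL6 was at 4.58, and no member call changed.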
